A study of Homo sapiens with 52 samples.

Results

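HS578T cells carrying the short hairpin RNA shNRP1#5, which targets neuropilin-1 (NRP1), were compared with HS578T cells carrying a non-targeting hairpin, shNT. The comparison was defined by the labels alone and held 3 libraries a group, 6 of the 52 libraries of the series. The series measured polyadenylated RNA in 3 established claudin-low breast cancer cell lines, HS578T, SUM159PT and MDA-MB-231, after NRP1 was knocked down with 2 hairpins (shNRP1#3, shNRP1#5) or 2 short interfering RNAs (siNRP1#3, siNRP1#5). Both groups here were lentivirally transduced with a pLKO.1 vector, selected with puromycin and harvested 48 h after seeding, so the type of vector, virus and selection was shared. Virus was made and cells were transduced separately for each hairpin, so virus preparation and transduction differed together with the hairpin sequence. The replicates of a group were consecutive passages, and separate transductions for each are not stated, so the spread within a group is that between passages. In the main fit of genes the p-values use the spread within groups over all 17 HS578T libraries, the siRNA libraries among them. The siRNA libraries came from cells transfected for 72 h without selection.

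NRP1 is a cell-surface co-receptor with a short cytoplasmic tail. It binds class 3 semaphorins together with plexins, and VEGF together with VEGF receptors, and it also associates with other growth factor receptors. Shorter transcripts that end before the transmembrane exons encode soluble forms, which keep the ligand-binding domains and can hold ligands away from the membrane receptor. Claudin-low cells have little claudin and E-cadherin and express mesenchymal genes.

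The sequences are shown here because the position of the hairpin site decides which NRP1 transcripts it can pair with. The shNRP1#5 site lies in GRCh38 at chr10:33263779-33263797 on the minus strand, in coding exon 4 of NRP1, and is held by 9 coding transcripts, transmembrane and soluble forms among them. The site of the other hairpin, shNRP1#3, lies at chr10:33185659-33185679 in coding exon 15 and is held by 4 transcripts, all transmembrane. The antisense strand was taken as the exact complement of the site, since its processed ends are not stated. Capitals mark the bases that pair with the seed of the antisense strand (its bases 2 to 8) and, in the antisense strand, the seed itself.
shNRP1#5 site: cagccttgaatGCACTTAt
shNRP1#5 antisense strand: aUAAGUGCauucaaggcug
shNRP1#3 site: gctgtggatgacaTTAGTATt
shNRP1#3 antisense strand: aAUACUAAugucauccacagc
Of 2370 mature miRNAs in the RefSeq table, 0 had the seed of the shNRP1#5 antisense strand at bases 2 to 8, and 5, all of the miR-302 family, had these letters at bases 1 to 7.

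Total counts ran from 31676716 to 72003442 a library. The claudin-low label was set against its markers, with VIM at 4550 to 9120 CPM (counts relative to library size, with TMM scaling between libraries), ZEB1 at 13.3 to 27.6 CPM, SNAI1 at 1.1 to 4.15 CPM, CLDN4 at 0.388 to 1.44 CPM and CDH1 at 0.0334 to 0.175 CPM. CLDN3 and the T cell gene CD3E had no count in any library, which allows up to 0.0947 CPM in the shallowest library (3 counts of its total, counting error only). Of the markers of other cells, PTPRC, CDH5, HBB and ALB were at or below 0.429 CPM, PECAM1 was at 2.53 to 8.09 CPM and CD68, which many cultured cells express, at 36.7 to 224 CPM. Genes that mark the other cell lines of the study stood at no more than 0.245% (4 genes of MDA-MB-231) and 0.158% (32 genes of SUM159PT) of their level in those lines. Mitochondrial transcripts held 2.08% to 2.93% of the counts. Ribosomal protein genes held 12.7% and 11.8% of the counts in the replicate 1 libraries of shNRP1#5 and shNT and 8.45% to 9.92% in the other 4.

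The replicate 1 libraries stood apart from replicates 2 and 3 in both groups. Of all genes tested, 1942 differed by more than 1 log2 unit in the same direction in shNRP1#5 and in shNT when replicate 1 was set against the mean of replicates 2 and 3, and the Pearson r of these differences across genes was 0.67 (genes are not independent replicates). H19, an imprinted non-coding RNA, was at 1240, 27.6 and 26.7 CPM in shNRP1#5 replicates 1, 2 and 3 and at 964, 14.9 and 16.5 CPM in shNT. The prostacyclin synthase gene PTGIS was at 30, 2.27 and 1.35 CPM and at 119, 10.2 and 8 CPM in the same order. The Wnt inhibitor gene DKK1 went the other way, with 6.05, 19.2 and 41.6 CPM in shNRP1#5 and 4.6, 15.5 and 17.9 CPM in shNT. The difference between replicate 1 and the others was thus found in the control cells as well, and a fit with the replicate number as a block takes it into account.

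**Figure D1:**
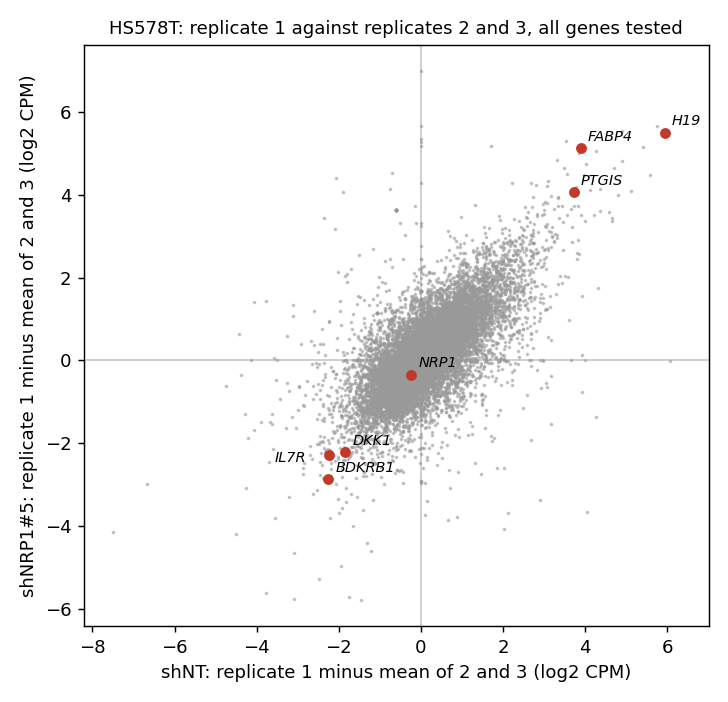
Each point is a gene tested, with the log2 CPM of replicate 1 minus the mean of replicates 2 and 3 in shNT (horizontal) and in shNRP1#5 (vertical). The cloud runs along the diagonal (r 0.67 across genes), with H19, FABP4 and PTGIS far up in both groups, IL7R, DKK1 and BDKRB1 down in both, and NRP1 near 0.

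NRP1 itself was at 24.1, 28.8 and 32.4 CPM in shNRP1#5 replicates 1 to 3 and at 107, 110 and 146 CPM in shNT. Every shNRP1#5 library lay below every shNT library, and the groups did not overlap. The mean fell from 121 ± 21.7 to 28.4 ± 4.17 CPM (SD, n = 3 each), a log2 fold change of -2.09 (SE 0.25, adjusted p = 0.0023 Benjamini-Hochberg, edgeR quasi-likelihood test). The log2 ratios of the libraries with the same number were -2.15, -1.93 and -2.17. The NRP1 gene (ENSG00000099250.18) spans chr10:33177492-33336262 on the minus strand.

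Both forms of the transcript were lower in every shNRP1#5 library. The 4 transcripts that encode transmembrane NRP1 summed to 4.48, 6.5 and 6.89 TPM (transcript abundance scaled for length and library size) in shNRP1#5 and 17.2, 16.1 and 25 TPM in shNT. The 5 soluble transcripts summed to 0.24, 0.69 and 1.47 TPM in shNRP1#5 and 7.21, 9.16 and 10.9 TPM in shNT. Neither form overlapped between the groups, and the difference of means on the log2(TPM + 0.1) scale was -1.69 for the transmembrane and -3.60 for the soluble form. The exact two-sided permutation test gave p = 0.1 for each, the smallest p that 3 against 3 libraries allow.

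The soluble form took a smaller share of NRP1 in each shNRP1#5 library than in any shNT library. It made up 3.73%, 5.88% and 11.9% of all NRP1 TPM in shNRP1#5 and 24.6%, 25.1% and 21.2% in shNT, again without overlap (exact permutation p = 0.1, the smallest possible). ENST00000374822.8, the most abundant soluble transcript, was at 0.15, 0.26 and 1.22 TPM against 6.29, 8.26 and 9.63 TPM. ENST00000374867.7, the most abundant transmembrane transcript, was at 3.7, 5.36 and 6 TPM against 15.2, 13.3 and 21.1 TPM. In the 2 libraries with shNRP1#3, whose site soluble transcripts lack, the soluble form was at 6.17 and 8.36 TPM and the transmembrane form at 4.76 and 6.3 TPM. Their soluble share was 46.1% and 46.4%. In cells transfected with siNRP1#5, which has the sequence of shNRP1#5, the soluble share was 32.8%, 36.6% and 30.5%, against 37.4%, 35.4% and 34.4% with the non-targeting siNT. The split of reads between transcripts of 1 gene is estimated, not counted, and other NRP1 transcripts, counted to neither form, make up the remaining TPM.

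**Figure D2:**
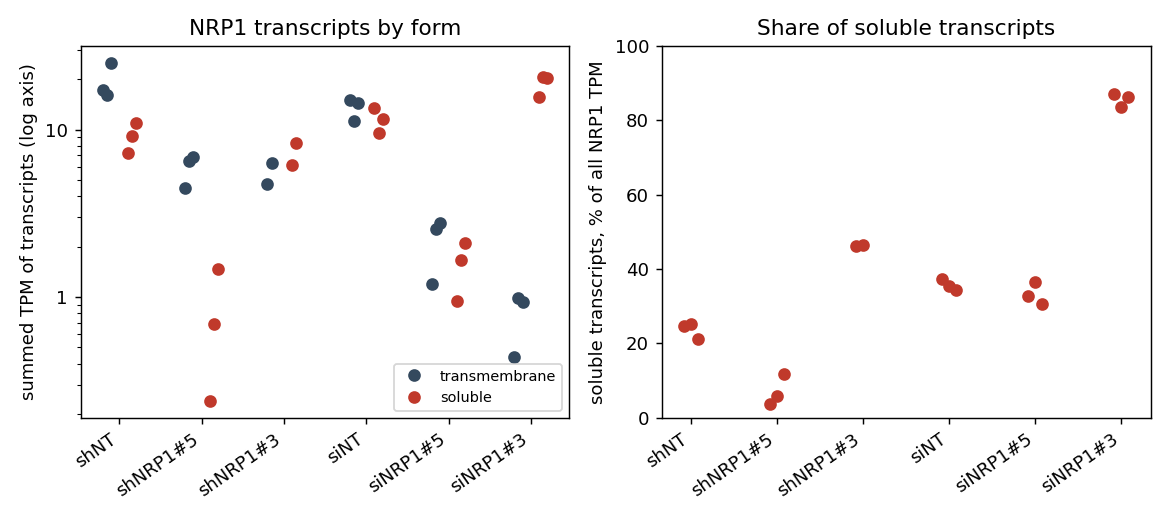
Left, summed TPM of the transmembrane and soluble NRP1 transcripts in each HS578T library (log axis), and right, the soluble transcripts in percent of all NRP1 TPM, by group; each point is a library. In shNRP1#5 the soluble points lie between 0.24 and 1.47 TPM, below those of shNT, and the share lies between 3.73% and 11.9%, below every other group.

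Outside NRP1, more genes were called lower than higher in the fit without the replicate block. Of 19661 genes tested, 54 were higher (0.275%) and 132 lower (0.671%) in shNRP1#5 at an adjusted p under 0.05, 186 in all (0.946%). Of the 186, 169 changed by more than 1 log2 unit and 168 were protein coding genes. In all 186 the groups did not overlap, and so the 3 same-numbered pairs moved the same way. Over all genes tested, the 186 included, 3183 higher (16.2%) and 2288 lower genes (11.6%) did not overlap. With the replicate number as a block, 507 genes were higher (2.58%) and 1000 lower (5.09%), and these held all 186 in the same direction. The split moved with the fit, with 549 genes higher and 527 lower when no filter on low counts was used. When the 2 groups alone were fitted with the block, which leaves 2 residual degrees of freedom, 3176 were higher and 3062 lower. Without the block, the 2 groups alone gave 0 called genes and the 3 shRNA groups alone gave 1.

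The count moved with each library. It was 10 without shNRP1#5 replicate 2 and 20 without shNT replicate 2, 65 and 370 without shNRP1#5 replicates 3 and 1, 72 and 83 without shNT replicates 1 and 3, and 79 without the siNRP1#5 libraries, which are in neither group but enter the estimate of the spread, the scaling and the count filter (19260 genes tested without them). Of the 35 passing genes that the naming rule chose, NRP1, CLEC11A, OGFRL1 and APCDD1 passed without any 1 of the 6 libraries, and they were the only ones to pass without shNRP1#5 replicate 2. With the block, 20 of the 35 passed whichever replicate number was left out.

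Among the genes that rose were secreted guidance cues, 2 of them class 3 semaphorins, the ligand family of NRP1. SEMA3A, the class 3 semaphorin that signals through NRP1 and plexin A receptors, was at 11, 9.27 and 8.98 CPM in shNRP1#5 and 1.61, 2.31 and 2.9 CPM in shNT. SEMA3D, another class 3 semaphorin, was at 5.33, 4.9 and 1.35 CPM against 0.891, 0.1 and 0.172 CPM. SLIT2, the secreted ligand of ROBO receptors, was at 6.81, 12.2 and 13.5 CPM against 1.8, 2.64 and 3.29 CPM. In all 3 genes the lowest shNRP1#5 library lay above the highest shNT library, most narrowly for SEMA3D. The log2 fold changes were 2.10 (SE 0.47, adjusted p = 0.0395) for SEMA3A, 3.22 (SE 0.72, adjusted p = 0.0418) for SEMA3D and 2.08 (SE 0.40, adjusted p = 0.0243) for SLIT2. The other class 3 semaphorins went both ways and did not pass in this fit. SEMA3C (0.85) and SEMA3E (0.74) were positive, and SEMA3B (-0.56), SEMA3F (-0.49) and SEMA3G (-1.36) were negative. SEMA3A (chr7:83955777-84492724) and SEMA3D (chr7:84995553-85187056) lie on the same chromosome as CD36 (chr7:80369575-80679277), described next. Any part of their position was not tested. Without shNRP1#5 replicate 2 the adjusted p was 0.162 for SEMA3A, 0.19 for SEMA3D and 0.129 for SLIT2, and SEMA3A passed in 0 of the 6 fits that left out a library. The log2 fold change of SEMA3D was 4.76 without shNT replicate 1, which held the highest SEMA3D level of its group.

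CD36, a scavenger receptor that takes up long-chain fatty acids, had the largest rise of the called genes with a gene symbol and a mean of at least 1 CPM, and the least even. It was at 7.48, 1.49 and 0.252 CPM in shNRP1#5 and at 0.157, 0.0668 and 0.0491 CPM in shNT. It reached the limit of 1 CPM through shNRP1#5, with group means of 3.07 against 0.0911 CPM. In shNT replicates 2 and 3 it lay under 3 counts (0.0947 and 0.0755 CPM), so the size of its change rests on few counts. Its log2 fold change was 4.94 (SE 1.07, adjusted p = 0.0365), and the log2 ratios of the pairs were 4.88, 3.26 and 1.24. The log2 fold change was 3.11 without shNRP1#5 replicate 1 and 5.68 without shNT replicate 1. OGFRL1, by contrast, was even, at 12.3, 13.3 and 10.9 CPM against 3.13, 3.14 and 3.46 CPM, a log2 fold change of 1.91 (SE 0.24, adjusted p = 0.0023). The nuclear body protein gene SP140 was at 2.41, 4.81 and 5.6 CPM against 0.454, 0.836 and 0.761 CPM, a log2 fold change of 2.66 (SE 0.46, adjusted p = 0.0172). All of these groups stood apart from each other, and the highest CD36 library was replicate 1 in both groups. Without shNRP1#5 replicate 2 the adjusted p was 0.0967 for CD36 and 0.0838 for SP140.

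Other genes that rose had varied roles. PMAIP1, which encodes the pro-apoptotic protein NOXA, rose from 3.62 ± 0.703 to 13.1 ± 2.47 CPM (log2 fold change 1.86, adjusted p = 0.0172). The transcription factor gene KLF5 rose by 1.72 on the log2 scale (adjusted p = 0.0366), and ATF3, a stress-induced transcription factor gene named from the list of immediate early genes and not for its size, by 1.22 (adjusted p = 0.0389). STC1, a secreted glycoprotein hormone gene, rose from 8.54 ± 3.12 to 33.4 ± 21.5 CPM (1.97, adjusted p = 0.0305), with the shNRP1#5 libraries at 19.9, 22.1 and 58.2 CPM and a log2 fold change of 1.3 without replicate 3. CPA4, a secreted carboxypeptidase gene, was more even, at 57.7 ± 4.57 against 16.7 ± 3.49 CPM (1.79, adjusted p = 0.0468). The extracellular matrix protein gene SVEP1 (1.93, adjusted p = 0.0227) and the alpha-1D adrenergic receptor gene ADRA1D (2.47, adjusted p = 0.0173) also rose. UGT1A7 (2.37), whose exons overlap those of its UGT1A neighbours, PSG4 (1.87), which has near-identical paralogues, and THBS1-IT1 (1.76), an RNA from within THBS1, passed too, but their counts may hold reads of those genes, and UGT1A7 was at 3.01 without shNT replicate 1. Without shNRP1#5 replicate 2 all 10 missed 0.05, with an adjusted p of 0.0805 for STC1 and 0.2 for THBS1-IT1 at the ends of the range.

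**Figure D3:**
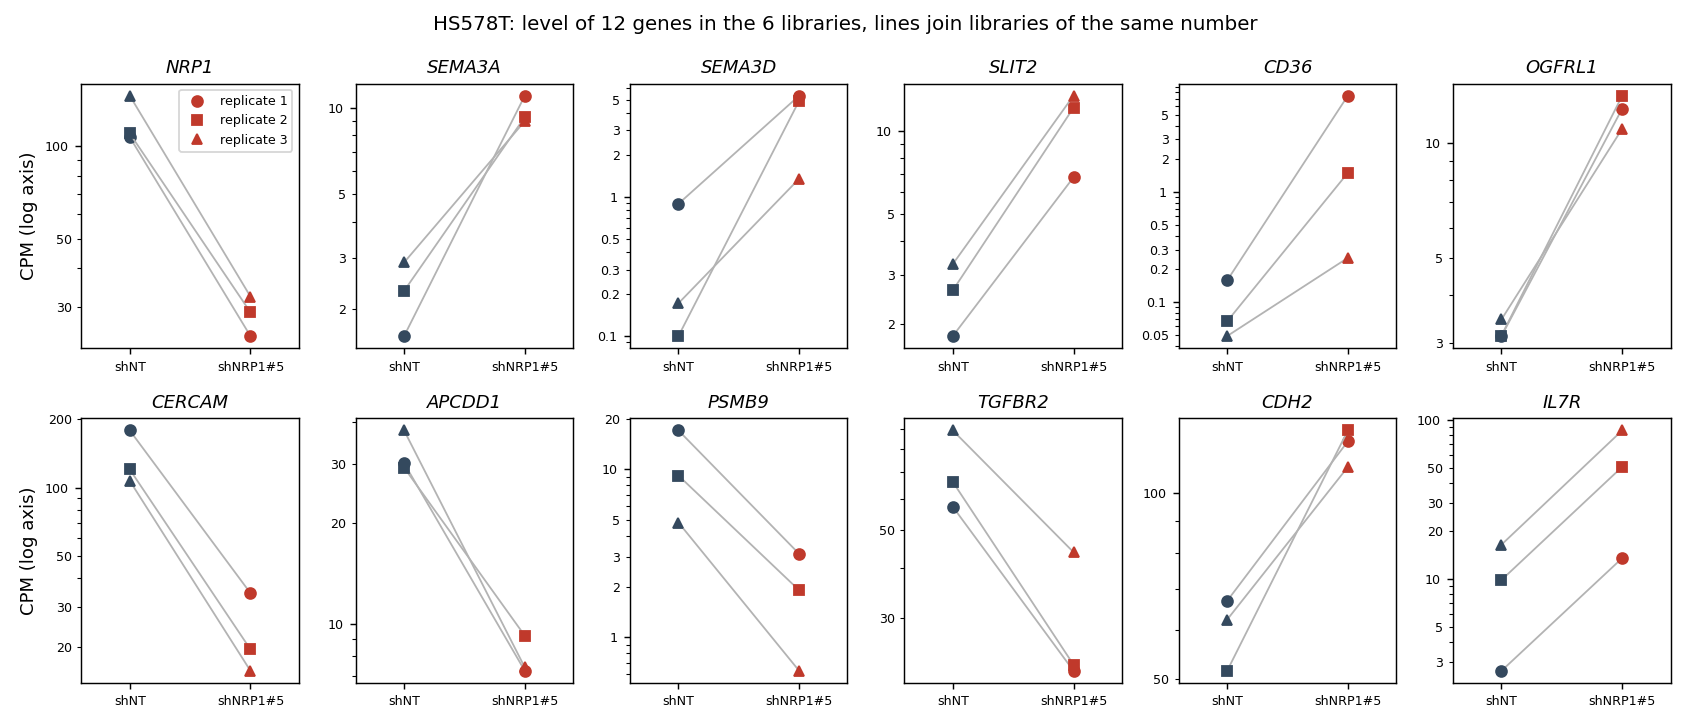
CPM (log axis) of 12 genes in the 3 shNT and 3 shNRP1#5 libraries, with lines joining libraries of the same replicate number. The lines of a gene run in 1 direction, and for IL7R the replicates differ in level (2.64 to 16.4 CPM in shNT) but rise by nearly the same factor.

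CERCAM was among the genes that fell most. It was at 34.4, 19.5 and 15.7 CPM in shNRP1#5 and at 178, 120 and 107 CPM in shNT, a log2 fold change of -2.54 (SE 0.36, adjusted p = 0.00363). APCDD1, which encodes a membrane-bound Wnt inhibitor, was at 7.23, 9.2 and 7.4 CPM against 30.1, 29.2 and 37.7 CPM (-2.02, SE 0.31, adjusted p = 0.00648). SBSN, a secreted protein gene known from keratinocytes, was at 2.55, 2.48 and 6.06 CPM against 14.5, 17.1 and 25.8 CPM (-2.36, SE 0.36, adjusted p = 0.00766). The groups of these 3 genes were well apart. CLEC11A, which encodes a secreted C-type lectin growth factor, was at 0.736, 0.966 and 0.856 CPM against 3.04, 5.58 and 4.61 CPM (-2.36, SE 0.31, adjusted p = 0.0023). SYT11, a vesicle trafficking gene of the synaptotagmin family, was at 0.715, 0.65 and 0.982 CPM against 5.91, 3.68 and 4.37 CPM (-2.56, SE 0.36, adjusted p = 0.00363). Without shNRP1#5 replicate 2 the adjusted p was 0.0585 for CERCAM and for SYT11 and 0.0805 for SBSN, and each of the 3 passed when any other library was left out.

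PSMB9, an interferon-inducible subunit of the immunoproteasome, was at 3.13, 1.9 and 0.63 CPM against 17, 9.16 and 4.81 CPM. It was highest in replicate 1 and lowest in replicate 3 of both groups, and the log2 ratios of the pairs were -2.41, -2.21 and -2.75, for a fold change of -2.47 (SE 0.54, adjusted p = 0.0365). TGFBR2, the type II receptor of TGF-beta, was at 22, 22.8 and 43.9 CPM against 57.2, 66.1 and 89.2 CPM (-1.26, SE 0.28, adjusted p = 0.0426). The phosphatase gene DUSP15 fell from 8.03 ± 1.58 to 1.37 ± 0.928 CPM (-2.57, adjusted p = 0.0173). In all 3 genes the groups did not overlap. The receptor tyrosine kinase gene TIE1, best known from endothelium, was at 1.43, 0.58 and 1.5 CPM against 14.3, 3.44 and 2.75 CPM (-2.55, adjusted p = 0.0365), and the endothelial marker PECAM1 was at 2.53 to 6.56 CPM against 3.21 to 8.09 CPM in the same libraries. Without shNT replicate 1, which held its highest value, the log2 fold change of TIE1 was -1.40. That of PSMB9 was -3.07 and that of DUSP15 -3.20 without shNRP1#5 replicate 1. Other genes of the 15 largest falls were COL11A2 (-2.52), CPZ (-2.29), GCKR (-2.13), GAL3ST4 (-2.13) and GPR162 (-1.97), with means of 2.09 to 12.6 CPM in shNT. COL11A2 was at -1.75 without shNT replicate 1, and GCKR at -2.85 without shNRP1#5 replicate 3. Without shNRP1#5 replicate 2 the adjusted p was 0.191 for PSMB9, 0.234 for TGFBR2, 0.115 for DUSP15 and 0.206 for TIE1, and the other 5 genes given here missed 0.05 as well.

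Some genes differed little between pairs but much between replicates, and passed only with the replicate block. IL7R, the receptor subunit for interleukin-7, was at 13.5, 50.6 and 85.7 CPM in shNRP1#5 and 2.64, 9.83 and 16.4 CPM in shNT. The groups overlapped, yet the log2 ratios of the pairs were 2.31, 2.35 and 2.38. Its adjusted p was 0.0807 without and 0.000104 with the block. ALDH3A1, an aldehyde dehydrogenase gene, was at 3.09, 0.316 and 0.164 CPM against 44.8, 3.68 and 2.43 CPM (pair ratios -3.82, -3.18 and -3.26; adjusted p = 0.172 without and 0.000104 with the block). The integrin subunit gene ITGB4 was at 2.96, 0.299 and 0.252 CPM against 12.1, 1.44 and 1.45 CPM (pair ratios -2.00, -1.95 and -2.14; adjusted p = 0.238 without and 0.000245 with the block). These 3 genes had their own level in replicate 1, and a like ratio in each pair. The same held of MMP3, a matrix protease gene (pair ratios 1.86, 1.69 and 2.37; adjusted p = 0.145 and 0.00226), and of RAB37, a vesicle transport gene (-2.24, -1.85 and -2.30; adjusted p = 0.282 and 0.00207). CLCA2, PLCXD3 and GSTA1 (higher) and OLFM2 (lower) also passed with the block alone (adjusted p = 0.00344, 0.0204, 0.0132 and 0.00403). Their pairs were less even, with ratios of 2.93, 2.88 and 1.09 for CLCA2 and 2.87, 2.58 and 0.58 for PLCXD3. The ratios were 2.67, 1.56 and 1.86 for GSTA1 and -2.06, -1.33 and -3.49 for OLFM2. ANXA8, which has a near-identical copy, did not pass in either fit of all HS578T libraries (adjusted p = 0.12 and 0.0524).

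Of the semaphorin and VEGF ligands and the partner receptors of NRP1, only the ligands held called changes. Among the semaphorin and VEGF ligands, 2 of 11 tested genes rose (SEMA3A and SEMA3D), 0 fell, and the median log2 fold change was 0.29, beside 0.275% higher, 0.671% lower and a median of 0 over all genes tested. Counts with the block, here and in the lists after it, stand beside 2.58% higher and 5.09% lower of all genes tested. With the block SEMA3G (-1.34, adjusted p = 0.0313) and VEGFB (-0.75, adjusted p = 0.0408) were lower as well, whereas VEGFA (0.29, adjusted p = 0.465) and VEGFC (0.65, adjusted p = 0.21) did not pass in the fit without it. Of 12 partner receptors, the plexins, VEGF receptors and NRP2, 0 passed in either fit (median -0.29), and NRP2 was at 14.6, 13.8 and 9.57 CPM against 18.2, 11.5 and 14.6 CPM. Of 13 growth factor receptors, 1 fell (TGFBR2) and 0 rose (median -0.12), and ERBB2 was lower with the block (-0.97, adjusted p = 0.0175). EGFR was at 61.2, 96.1 and 169 CPM against 57.8, 91.9 and 116 CPM, and PDGFRB at 126, 142 and 70.4 CPM against 138, 129 and 112 CPM. Both overlapped between groups (adjusted p = 0.62 and 0.745). Of 14 ephrin, slit and robo guidance genes, 1 rose (SLIT2) and 0 fell (median 0.11), and with the block EFNB2 was higher (0.76, adjusted p = 0.0323) and SLIT3 (-1.04, adjusted p = 0.0175) and EPHB4 (-0.70, adjusted p = 0.0366) were lower.

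Of the genes of cell identity, N-cadherin moved. CDH2, its gene, was at 121, 126 and 110 CPM in shNRP1#5 and 66.9, 51.6 and 62.4 CPM in shNT, a log2 fold change of 0.98 (SE 0.21, adjusted p = 0.0365; 0.19 without shNRP1#5 replicate 2). It was the only 1 of 10 EMT transcription factors and mesenchymal genes to pass (median 0.24), and with the block TWIST2 was lower (-0.76, adjusted p = 0.016). ZEB1 was at 25.9, 19.5 and 27.6 CPM against 25, 13.3 and 25.5 CPM (adjusted p = 0.848). Of 11 epithelial genes 0 passed (median 0.26), and with the block CLDN1 was higher (2.00, adjusted p = 0.0237) and KRT8 lower (-0.95, adjusted p = 0.0166). Of 14 integrin genes 0 passed (median -0.23). With the block ITGB8 was higher (1.61, adjusted p = 0.0161) and ITGB4, ITGA10 (-1.33, adjusted p = 0.00412) and ITGA11 (-0.89, adjusted p = 0.00691) were lower. ITGA6 was at 45, 29.5 and 49.1 CPM against 63, 32.2 and 47.6 CPM (adjusted p = 0.743). Of 5 stem cell markers 0 passed in either fit, CD44 being at 1490 to 2300 CPM against 1220 to 1780 CPM.

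The interferon-stimulated genes had the lowest median of the 27 lists, at -0.36, with 2 of 17 genes lower and 0 higher, where 0.671% of all genes tested were lower and 0.275% higher. The antiviral genes MX2 (0.429, 0.474 and 0.34 CPM against 1.69, 1.34 and 1.33 CPM; -1.81, adjusted p = 0.0172) and OAS2 (0.143, 0.211 and 0.201 CPM against 0.926, 0.735 and 0.442 CPM; -1.90, adjusted p = 0.0361) were both at low levels and without overlap. Without shNRP1#5 replicate 2 the adjusted p was 0.0838 for MX2 and 0.162 for OAS2. With the block ISG15 (-0.87, adjusted p = 0.0477), IFI6 (-0.98, adjusted p = 0.035) and IRF7 (-1.11, adjusted p = 0.0309) were also lower, 5 of 17 in all, where 5.09% of all genes tested were lower with it. IFIT2 (0.45) and IFI44L (0.93) had positive values and did not pass. Of 14 immediate early genes 1, ATF3, rose and 0 fell (median 0.04).

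In the other 17 lists 0 genes passed without the block. The 18 mitosis genes (median 0.16) and the 18 DNA replication genes (0.18) included MKI67, at 116, 120 and 170 CPM against 63.7, 113 and 161 CPM (adjusted p = 0.668), and with the block the replication helicase gene MCM7 was lower (-0.96, adjusted p = 0.0201). Of 12 p53 targets (median 0.20), MDM2, the ubiquitin ligase gene that limits p53, was at 9.97, 14.8 and 15.9 CPM against 3.79, 4.24 and 6.8 CPM, without overlap (1.45, adjusted p = 0.0679; 0.00631 with the block). GDF15 was higher with the block (2.02, adjusted p = 0.00389) and TP53I3 lower (-0.80, adjusted p = 0.035), while CDKN1A was at 27.8, 41.4 and 73 CPM against 44.7, 65.6 and 60.1 CPM. Of 14 contractile genes (0.34) ACTG2, of 13 YAP and TEAD targets (-0.19) F3, and of 10 NRF2 targets (0.28) TXNRD1 were higher with the block. Of 12 MAPK feedback genes (0.47) DUSP6 was higher and SPRED3 lower with the block. Of 14 matrix protease and plasminogen genes (-0.20), MMP3 and SERPINB2 were higher and TIMP1 and PLAU lower with it. Among 19 collagens and matrix genes (0.17) TNC, and among 15 hypoxia and glycolysis genes (0.08) HK2, were higher with it. In the lists of inflammatory cytokines (0.29), cholesterol synthesis (0.21), ATF4 and unfolded protein response genes (0.23), TGF-beta, BMP and activin genes (0.19), RNA interference machinery (0.23) and mitochondrially encoded genes (-0.20), 0 passed in either fit. Of 4 blood and endothelial markers tested (-0.13), CD68 was lower with the block, at 71.1, 36.7 and 117 CPM against 224, 155 and 180 CPM (-1.46, adjusted p = 0.00344).

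**Figure D4:**
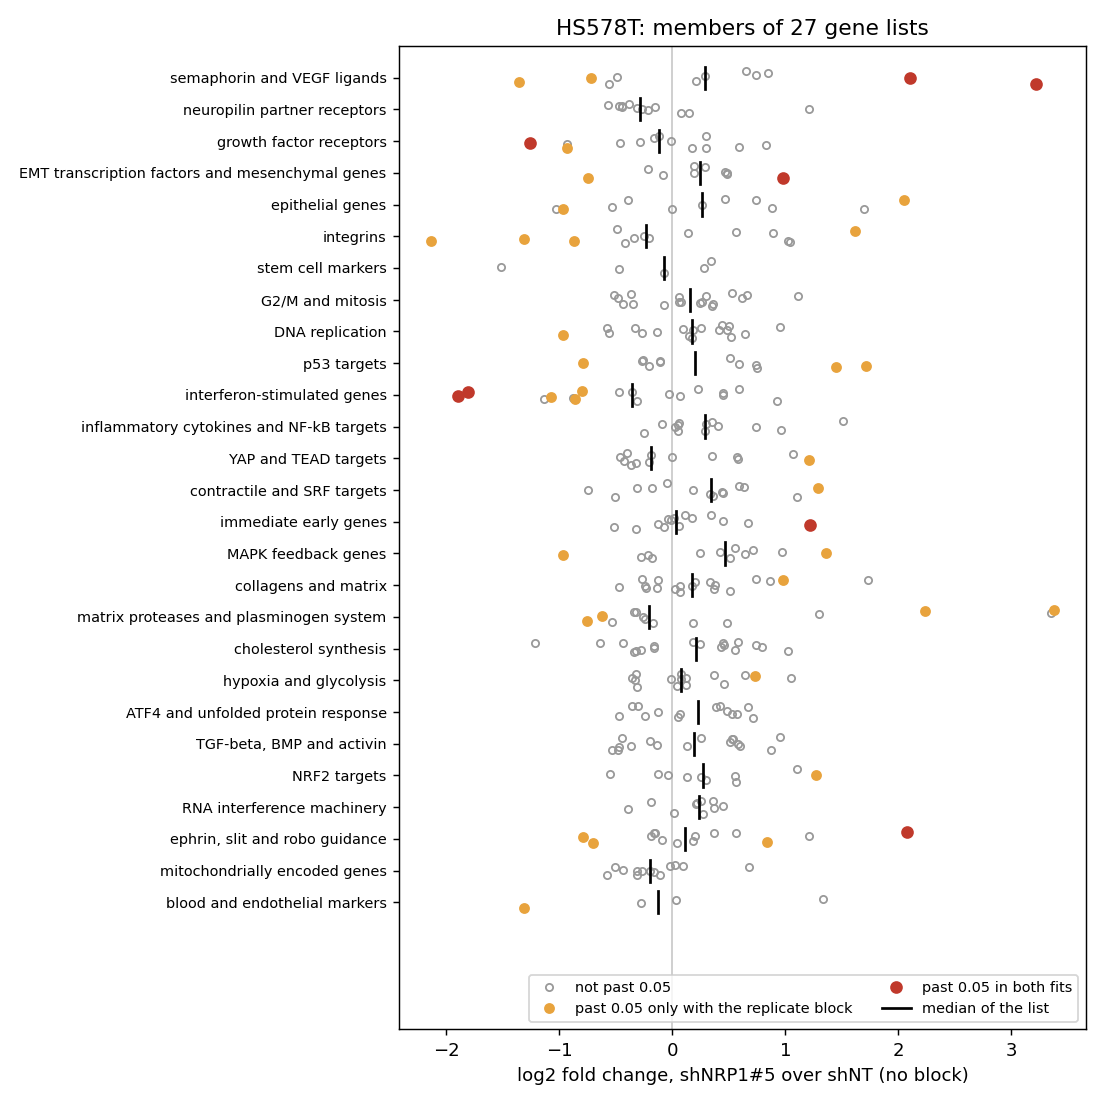
Each point is a tested member of 1 of 27 gene lists, placed by its log2 fold change (shNRP1#5 over shNT, fit without the block); red marks an adjusted p under 0.05 in both fits, orange with the replicate block alone, open circles neither, and bars the list's median. Medians run from -0.36 (interferon-stimulated genes) to 0.47 (MAPK feedback genes), and the red points are SEMA3A, SEMA3D, TGFBR2, CDH2, MX2, OAS2, ATF3 and SLIT2.

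The 2 hairpins were compared directly, since both target NRP1 in the same cells. Between shNRP1#5 and shNRP1#3, which has 2 libraries, 107 genes differed (0.544%), 65 higher and 42 lower with shNRP1#5, and 35 of the 186 genes called against shNT were among them. NRP1 did not pass here (-0.50, adjusted p = 0.528). The rises of SLIT2 (2.68, adjusted p = 0.0186), STC1 (2.60, adjusted p = 0.0188), SVEP1 (2.85, adjusted p = 0.00801), ADRA1D (3.74, adjusted p = 0.00665), OGFRL1 (1.48, adjusted p = 0.019) and KLF5 (2.15, adjusted p = 0.0359) were also differences between the hairpins. So were the falls of CERCAM (-2.48, adjusted p = 0.0069) and DUSP15 (-3.23, adjusted p = 0.00665). SEMA3A (2.35, adjusted p = 0.0643), SEMA3D (3.55, adjusted p = 0.0776) and TGFBR2 (-1.32, adjusted p = 0.0643) did not pass. The values of shNRP1#3 over the same shNT libraries were -0.25 for SEMA3A, -0.32 for SEMA3D, -0.61 for SLIT2, 0.42 for OGFRL1, -0.07 for CERCAM, -1.10 for APCDD1 and -1.59 for NRP1 (adjusted p = 0.069 for NRP1). The count of genes between the hairpins was 23 without shNRP1#5 replicate 2, 67 without replicate 3 and 455 with the block.

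The same sequence was also delivered as siNRP1#5, against siNT libraries that are not shared with this comparison. Of the 54 genes that rose with shNRP1#5, 53 had a positive and 34 a called positive log2 fold change with siNRP1#5, where 51.7% of all genes were positive and 10.1% called higher. The 34 were 63% of the 54 and 1.71% of the 1989 genes called higher there. Of the 132 that fell, 117 were negative and 71 called lower, where 48.3% were negative and 8.53% called lower, and 3 were called higher. SEMA3D (3.79, adjusted p = 0.00322), SLIT2 (1.98, adjusted p = 0.00369), CD36 (3.57, adjusted p = 0.0256), OGFRL1 (1.95, adjusted p = 0.000136), CDH2 (0.98, adjusted p = 0.00522) and IL7R (3.70, adjusted p = 0.00185) rose with the siRNA too. APCDD1 (-2.23, adjusted p = 0.000308), CLEC11A (-2.01, adjusted p = 0.000442) and NRP1 (-2.66, adjusted p = 3.68e-05) fell with it. The siNRP1#5 libraries carried marker genes of MDA-MB-231 at 20.1%, 21.1% and 10.3% of their level in that line, against 0.666% to 1.49% in siNT. Those of SUM159PT were at 0.331%, 6.39% and 0.489%, against 0.0755% to 0.153% in siNT, and the part of either in the siRNA values was not tested.

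The difference between the deliveries passed for 168 genes (0.854%), 32 higher and 136 lower with the hairpin, of which 12 were among the 186. OAS2 fell with the hairpin (-1.90) and rose with the siRNA (2.51, adjusted p = 0.000567), and the difference passed (-4.41, adjusted p = 0.0016). SYT11 fell with the hairpin (-2.56) and was at 0.15 with the siRNA (difference -2.71, adjusted p = 0.0186). The interferon-stimulated genes had a median of 1.91 with siNRP1#5, beside -0.36 with shNRP1#5. In the same siRNA libraries, with the markers of other cell lines given above, the epithelial genes were at 2.93 (0.26 with the hairpin) and the blood and endothelial markers at 1.62 (-0.13). These differences between lists were not tested. The count of 168 was 21 without shNRP1#5 replicate 2, 85 without replicate 3, 64 and 72 without shNT replicates 1 and 2, and 679 with the block.

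**Figure D5:**
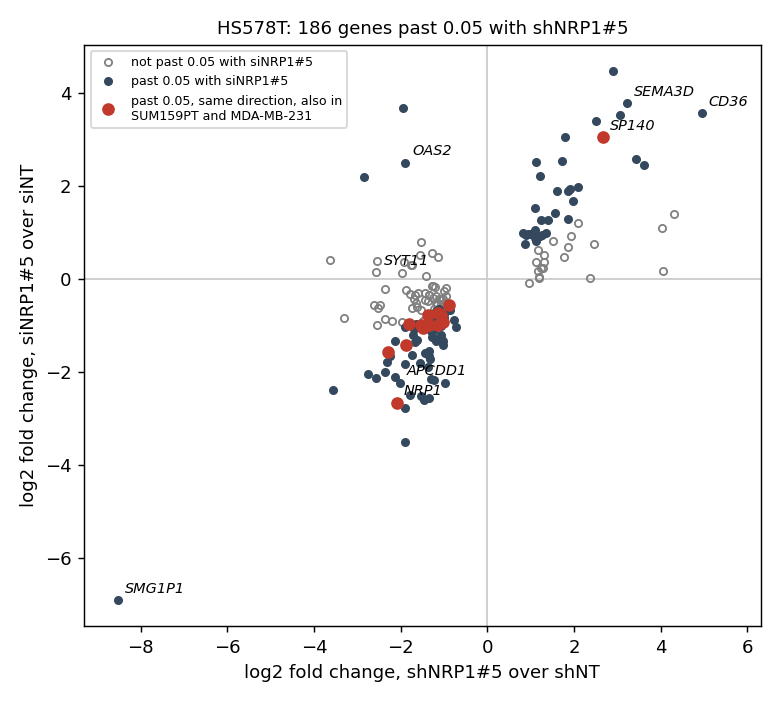
Log2 fold changes of the 186 genes called with shNRP1#5 over shNT (horizontal) and with siNRP1#5 over siNT (vertical); filled points passed 0.05 with the siRNA, and red points are the 14 genes that also passed in SUM159PT and MDA-MB-231 in the same direction. Most points lie in the lower left and upper right, OAS2 lies upper left, and SMG1P1, far left, is a pseudogene with no count in the shNRP1#5 libraries, so its place depends on the prior of the fit.

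The genes called with shNRP1#5 in HS578T were also followed in the other 2 cell lines. Of those higher, 46 of 50 tested in SUM159PT and 30 of 47 tested in MDA-MB-231 had a positive log2 fold change with shNRP1#5 (51.4% and 51.5% of all genes), and 12 and 15 were called higher there, where 3.24% and 8.79% of all genes were, while 1 and 4 were called lower. Of those lower, 109 of 120 and 102 of 115 had a negative one (48.6% and 48.4% of all genes), and 55 and 56 were called lower, where 2.7% and 11.9% of all genes were, while 2 and 2 were called higher.

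Genes that moved with this sequence in each of the settings were few. The 4 comparisons with sequence #5 were the HS578T hairpin and siRNA, and the hairpins in SUM159PT and MDA-MB-231. None of them share controls, but both HS578T comparisons came from the same fit with a shared estimate of the spread. The HS578T siNRP1#5 libraries also carried marker genes of MDA-MB-231 at 10.3% to 21.1% of their level in that line. Of 16331 genes tested in all 4, 13 were called lower and 1 higher in each, a set chosen after the values were seen. The gene called higher was SP140. Those called lower were NRP1, CPZ, MX2, IFI35, TESK2, PIGS, MTMR4, FNDC4, ECM1, UBE2L6, CACNB3, RELA and DAZAP2. PIGS, a subunit of the enzyme that attaches proteins to their GPI anchor, was at 16.3, 13.1 and 13.9 CPM against 45.7, 41.5 and 34.1 CPM in HS578T (-1.49, SE 0.20, adjusted p = 0.0023), with -1.05 under siNRP1#5, -1.62 in SUM159PT and -0.84 in MDA-MB-231. RELA, the p65 subunit of NF-kB, was at 69.2, 66.3 and 81.3 CPM against 119, 146 and 133 CPM (-0.88, SE 0.18, adjusted p = 0.0317), and 0 of 13 NF-kB and inflammatory genes passed in HS578T. UBE2L6, the conjugating enzyme for ISG15, was at 32.9, 24.5 and 18.8 CPM against 83.2, 63.7 and 49.8 CPM (-1.37, adjusted p = 0.0215). DAZAP2 was at 28.2, 33.7 and 46.9 CPM against 59.6, 75.9 and 94.7 CPM (-1.08, adjusted p = 0.0279), and MTMR4, a phosphoinositide phosphatase gene, at 6.81, 8.06 and 10 CPM against 20.3, 21.2 and 22 CPM (-1.35, adjusted p = 0.0166). The groups did not overlap in any of these 5 genes. With shNRP1#3, which has 2 libraries, over the same shNT libraries, 0 of the 14 passed, the targeted NRP1 among them (-1.59, adjusted p = 0.069). CPZ (-1.79), DAZAP2 (-1.01), ECM1 (-0.66) and UBE2L6 (-0.60) were negative there as well, and PIGS was at -0.10. Of the genes called lower, IFI35 alone was not negative (0.03). The direct difference between the hairpins passed for PIGS alone (-1.39, adjusted p = 0.0069), and was -0.07 for DAZAP2 and -0.50 for CPZ.

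Of the 13 genes lower in all 4 comparisons, NRP1 among them, 5 (38.5%) held the letters GCACTTA, the complement of the antisense seed, in the longest annotated 3' UTR, against 9.86% of 14133 tested genes with a UTR. The 13 were chosen from these same values, and the shares were not matched for UTR length and not tested. These 25-base windows are shown because the seed is what such a small RNA shares with transcripts other than its target; capitals mark the seed match, positions are GRCh38, and the match is one of letters, not a shown site.
PIGS, chr17:28553562-28553586, minus strand: cttgtttttGCACTTAttgtctgga
MTMR4 (the first of 2 matches), chr17:58490528-58490552, minus strand: tatttctgtGCACTTAacaatggaa
RELA, chr11:65654303-65654327, minus strand: cctccaaaaGCACTTAcggattctg
DAZAP2, chr12:51243691-51243715, plus strand: cactgtggtGCACTTAacttgtgga
TESK2, chr1:45344326-45344350, minus strand: ttgctgtttGCACTTActgcatggt

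Over the 14133 tested genes with a UTR, those with a seed match did not have a lower median with shNRP1#5. The 1393 genes with GCACTTA in the 3' UTR had a median log2 fold change of 0.15, against 0.03 for the 12740 without it. With siNRP1#5, which has the same sequence, the median was 0.01 with a match and 0.09 without. With shNRP1#3, which has another seed, the same genes had medians of 0.11 with a match and -0.01 without. Of the genes called lower with a UTR, 22 of 120 (18.3%) had the match, and of those called higher 8 of 47 (17%), beside 9.86% of all genes with a UTR. The genes with a match had longer UTRs, with a median of 3438 bases against 1318 without a match and 1470 over all genes with a UTR. The complement of the sense strand's seed, CAAGGCT, was held by 13.5% of genes (median 0.06) and by 9 of 120 genes called lower. The match of the other hairpin's seed, TTAGTAT, was held by 13.5% of genes (median 0.37) and by 4 of 120 lower and 14 of 47 higher genes. In the transcript with the highest TPM in place of the longest UTR, 18 of 120 lower (15%) and 5 of 47 higher genes (10.6%) held GCACTTA, against 6.54% of all. The medians with and without a match were then 0.11 and 0.04 with shNRP1#5 and -0.06 and 0.09 with siNRP1#5. Transcripts other than NRP1 that match the whole 19 bases with at most 3 mismatches came from 11 tested genes for the antisense and 12 for the sense strand, and 0 of either were called.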

How the data were processed

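Per the submitters' processing notes and the methods, the authors trimmed reads with Trim Galore 0.6.5 (quality by FastQC 0.11.9), aligned them to GRCh38 with STAR 2.7.2b and quantified genes and transcripts with RSEM 1.3.3. The libraries were strand-specific and polyA-selected. The deposited gene file holds RSEM expected counts, and the deposited transcript files hold TPM and isoform percent. Groups and replicate numbers came from the labels. Genes are named as in the deposited files. Coordinates, UTRs and sites came from GENCODE annotation and RefSeq tables of GRCh38. The GENCODE release was an earlier one than that of the authors, so UTRs and sites may differ from theirs.

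Expected counts were rounded and fitted with edgeR 4.0.16 (filterByExpr, TMM, robust quasi-likelihood test) in R 4.3.3 over the 17 HS578T libraries with 6 group means, with Benjamini-Hochberg adjustment over 19661 of 78894 genes and a threshold of 0.05. CPM are TMM-scaled. Fits with the replicate number as a block were run beside it: deviations of same-numbered shNRP1#5 and shNT libraries from their group means correlated at 0.67, 0.24 and 0.47, so the numbers were taken to pair the libraries. Of differently numbered pairs, those with a replicate 1 were at -0.58 to -0.33, but shNRP1#5 2 with shNT 3 was at 0.20 and shNRP1#5 3 with shNT 2 at 0.32, so the check separates replicates 2 and 3 only weakly. Transcript TPM were compared by the exact permutation test on log2(TPM + 0.1). Other fits were DESeq2 1.42.0, RLE scaling, no count filter, fewer groups and each library left out. The calculation was run on simulated counts that held no difference between deliveries, and no result here rests on that run. No 2 replicates were alike within sampling noise (chi-square per degree of freedom 40.8 to 319).

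Named genes were NRP1, NRP2, ZEB1, ITGA6, EGFR and PDGFRB, the 15 called genes highest and the 15 lowest in fold change with a mean of at least 1 CPM, up to 5 more each way from the fit of both groups with the block, and up to 4 called genes of each of 27 lists, or the first 2 tested. The members and lists were chosen with earlier results of these data known. Some of the genes chosen by this rule are not reported here.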

Additional observations from a re-analysis of the deposited data

Results flagged for a closer look

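The results below differed between settings by a test of the difference itself, given as a log2 value with edgeR's adjusted p; no explanation was tested. Between the deliveries of sequence #5 in HS578T (shNRP1#5 over shNT minus siNRP1#5 over siNT), 168 genes passed. Named genes among them were OAS2 (-4.41, adjusted p = 0.0016), SYT11 (-2.71, adjusted p = 0.0186), DDIT3, a stress-induced transcription factor gene (-1.88, adjusted p = 0.0163; 0.48 with the hairpin and 2.36 with the siRNA), and ANXA8, which has a near-identical copy (-5.49, adjusted p = 0.0272; -2.51 and 2.99). The siNRP1#5 libraries held marker genes of MDA-MB-231 at 10.3% to 21.1% of their level in that line and those of SUM159PT at 0.331%, 6.39% and 0.489%, and the part of either in the differences was not tested.

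Differences of shNRP1#5 over shNT between cell lines came from a fit of all 52 libraries that was added after seeing the data. Between HS578T and SUM159PT 263 of 23416 genes passed (1.12%), 17 of the 186 among them. SLIT2 (difference 2.10, adjusted p = 0.0208), STC1 (2.35, adjusted p = 0.022), OGFRL1 (1.38, adjusted p = 0.0286) and UGT1A7 (4.30, adjusted p = 0.00217) were higher in HS578T. TGFBR2 fell less in HS578T than in SUM159PT (-1.26 and -3.04; difference 1.83, adjusted p = 0.00498). APCDD1 fell in HS578T and rose in SUM159PT (-2.02 and 2.47; difference -4.44, adjusted p = 0.00731), and COL11A2 was at -2.52 and 0.84 (difference -3.35, adjusted p = 0.00319).

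Between HS578T and MDA-MB-231 153 genes passed (0.653%), 31 of the 186 among them. The semaphorins SEMA3A (2.10 and -0.29; difference 2.42, adjusted p = 0.035) and SEMA3D (3.22 and 0.08; difference 3.11, adjusted p = 0.0438) differed. So did STC1 (2.96, adjusted p = 0.00627) and OGFRL1 (2.07, adjusted p = 0.00135). Lower in HS578T were TIE1 (-3.59, adjusted p = 0.00794), GCKR (-3.34, adjusted p = 0.00525), SYT11 (-2.59, adjusted p = 0.0254) and CERCAM (-1.67, adjusted p = 0.0454).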

How the results depend on the processing

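The direction of the NRP1 fall held in the alternatives run; its log2 value ran from -2.20 to -1.93 when 1 library was left out, and it missed 0.05 only when the 2 groups were fitted alone without the block (-2.11, adjusted p = 0.0595). The count of called genes, 186, depended on the fit more than on the scaling: 1009 with DESeq2, 215 with RLE size factors (median shift of all genes -0.04), 1076 with no filter on low counts, 1507 with the replicate block, 79 without the siNRP1#5 libraries, 4454 in the 3 shRNA groups with the block (added after seeing the data) and 6238 in the 2 groups with the block, where 2 residual degrees of freedom are left. In the 2 groups without the block edgeR called 0 genes (4005 at an unadjusted p under 0.05), and in the 3 shRNA groups 1 (3764). With 1 library left out it ran from 10 to 370. With the block and the libraries of number 1, 2 or 3 left out, added after seeing the data, it was 347, 116 and 327. The share of higher genes, 29%, was 51% with no filter and 50.9% in the 2 groups with the block. Between the hairpins the count, 107, was 477 with DESeq2, 485 with no filter, 455 with the block and 23 to 159 with 1 library left out; between the deliveries, 168 became 618, 691, 679 and 21 to 183. Of genes that did not pass, COL1A2 (0.02) was at -0.03 with DESeq2 and RLE, -0.09 with the block, -0.01 and -0.11 in the 2 groups without and with it, CXCL8 (0.06) at -0.06 and -0.11 in the 2 fits with the block, and MT-ND1 (0.02) at -0.03 with DESeq2 and RLE and -0.01 in the 2 groups with the block. With 1 library left out the sign turned for ACTA2 (-0.89 to 2.23), ATF4 (-0.06 to 0.16), CCN2 (-0.53 to 0.09), CD24 (-0.88 to 0.67), CDH1 (-0.08 to 0.90), COL1A2 (-0.27 to 0.35), CXCL8 (-0.69 to 0.33), DUSP4 (-0.12 to 0.39), EGFR (-0.17 to 0.58), EPCAM (-0.49 to 4), HMOX1 (-0.19 to 0.21), ITGA6 (-0.42 to 0.05), MKI67 (-0.02 to 0.62), MT-ND1 (-0.11 to 0.12), NQO1 (-0.40 to 0.23), PDGFRB (-0.36 to 0.09), SLC2A1 (-0.27 to 0.24), TAGLN (-0.13 to 1.23) and ZEB1 (-0.05 to 0.34). The cause of these moves was not tested. Low counts limit the genes under 1 CPM, and 3 libraries a group limit the exact tests to p = 0.1.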
